A study of Mus musculus with 14 samples.

Results

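Intestinal stem cells from mice of 18 months (old) and 2 months (young) were compared across all genes that a count filter retained, beyond the marker genes with which such cells are usually described. The comparison used 6 of the series' 14 libraries, 3 per age, in which 16807 of the 55335 genes of the count table were tested. All 6 libraries came from mice carrying Lgr5CreERT2-IRES-GFP, an allele that places a tamoxifen-inducible Cre recombinase and a green fluorescent protein under the control of the Lgr5 locus. The labels give the genotype of both ages as WT and the treatment of both as NT, an abbreviation they do not spell out. Unlike the other 8 libraries, these are not described as carrying a floxed Chrm3 allele. Cells were isolated from intestine by fluorescence-activated sorting for the green signal, so the sorted population is defined by Lgr5 promoter activity and by how long the fluorescent protein persists. The labels do not state the segment of intestine, the sex or strain of the mice, the time of day of collection, or whether each library came from a separate animal. The p-values below therefore measure the spread between these libraries, which may be partly technical.

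Lgr5-positive cells lie at the base of the intestinal crypts, where they divide and supply the absorptive enterocytes and the secretory goblet, Paneth, enteroendocrine and tuft cells of the epithelium. They are maintained by Wnt, Notch and epidermal growth factor signals, and they respond to diet, to cytokines from mucosal immune cells and to the daily clock. With age, the renewal of the epithelium and its recovery from injury are known to slow.

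The libraries held 32366366 to 35804988 counts, of which 6.12% to 7.07% fell on mitochondrially encoded genes, and between 22882 and 23340 genes had at least 1 count. Values below are CPM, a gene's counts brought to a common library total with trimmed mean of M-values factors, given in the order of replicates 1, 2 and 3. A fold change is always old over young, with its standard error (SE), and n was 3 libraries per age. The first principal component carried 42.6% of the variance and separated the ages. The second carried 17.9% and placed young 3 and old 3 on the same side.

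The labelled cell type was checked first. Olfm4, a secreted marker of crypt base stem cells, stood at 9793, 9763 and 10028 CPM in young and 9986, 9034 and 11673 CPM in old libraries, a log2 fold change of 0.05 ± 0.08 with an adjusted p of 0.79. Lgr5, the receptor for R-spondins whose locus drives the sort, stood at 99.4, 97.7 and 111 CPM in young and 83.3, 80.3 and 95.9 CPM in old libraries, a difference that missed the threshold (-0.25 ± 0.08 in log2, adjusted p 0.086). Every old Lgr5 value was below every young value. Markers of stromal, vascular and muscle cells were low, with 9 of 30 tested, none of them called by edgeR or limma-voom, 1 by DESeq2 and 2 at an unadjusted p under 0.05, and Acta2, Cdh5, Col1a2, Dcn and Pdgfra at 0 counts in all 6 libraries. Lymphocyte markers differed between the ages and are described with the immune genes below. Genes of other epithelial lineages were read too. Stem cell genes summed to 16165 to 16716 CPM in young and 15156 to 18647 CPM in old libraries. Paneth cell genes summed to 13875 to 14448 and 11237 to 14370 CPM, goblet cell genes to 9063 to 10362 and 11275 to 11615 CPM. The goblet sum includes Fcgbp, whose mean was 3637 CPM in young and 5658 CPM in old libraries, a larger rise than that of the sum. The median log2 fold change of the goblet list was near 0 (-0.0047). Tuft cell genes summed to 789 to 916 and 625 to 676 CPM, enteroendocrine genes to 357 to 394 and 499 to 675 CPM. In which cells this RNA was made was not tested. In such bulk libraries, fewer cells of a type and less RNA per cell cannot be told apart.

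Expression differed between the ages at 1318 genes (7.84% of those tested, edgeR quasi-likelihood test with Benjamini-Hochberg adjusted p under 0.05). Of these, 743 rose in old cells (4.42%) and 575 fell (3.42%). The rises were larger: their median log2 fold change was 0.82, against -0.51 for the falls, while the median over all tested genes was near 0 (-0.0007). A 2-fold difference was exceeded by 315 of the genes that rose and 144 of those that fell. The ranges of the ages did not overlap at 1314 of the 1318 genes. Among all tested genes the old libraries lay wholly above the young ones at 13.2% and wholly below at 13.2%, so separation alone was common. The number of changed genes fell to 800 without young 1, 636 without young 2 and 638 without old 1, and was between 1015 and 1485 without any other single library. Across all 6 such analyses 526 genes passed every time. A gene described below as having risen or fallen passed in all of them unless its sentence or paragraph says otherwise.

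**Figure D1:**
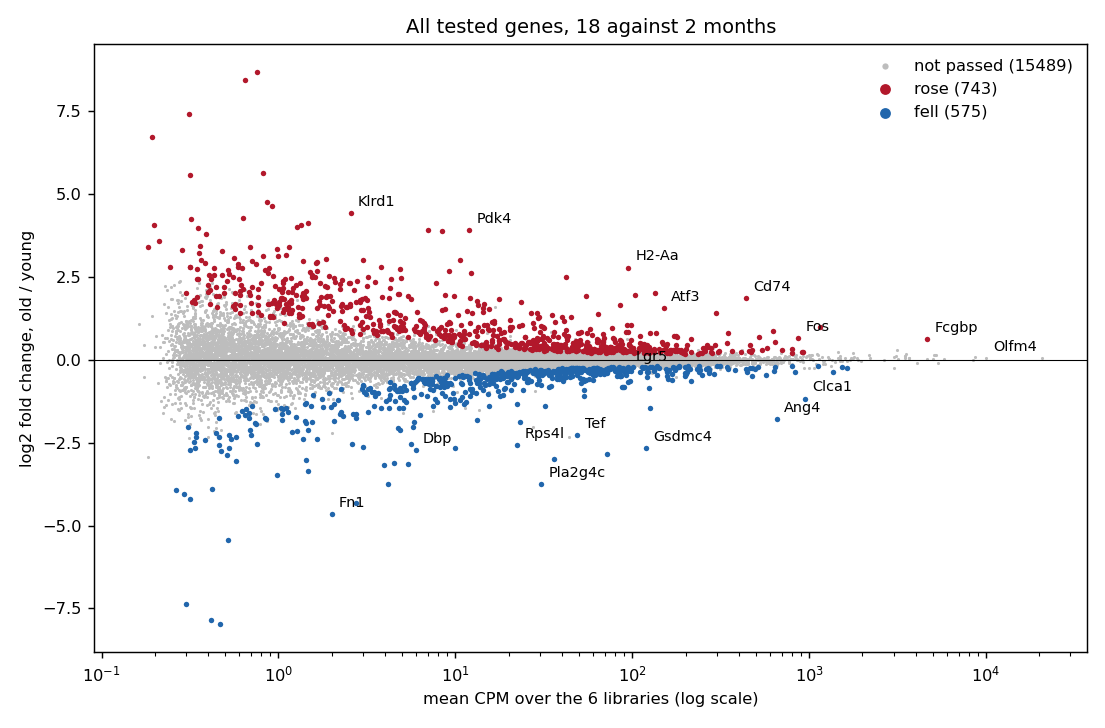
Each point is 1 of the 16807 tested genes, with mean CPM over the 6 libraries on the horizontal log axis and the log2 fold change of old over young on the vertical axis. Coloured points mark the 743 genes that rose and the 575 that fell; the rises reach larger fold changes than the falls over most of the expression range.

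The genes were read against 70 lists of pathways and cell types. Of the 1318 changed genes 376 were on a list. In 22 lists at least 3 members rose and their share was at least 2 times the share among all tested genes. In 23 lists at least 3 members fell and their share was at least 2 times that among all genes. No member passed the test in 7 lists, among them the 62 tested DNA repair genes, the 77 nuclear-encoded respiratory chain subunits, the 36 proteasome subunits and the 13 protein-coding genes of mitochondrial DNA. At an unadjusted p under 0.05, edgeR's test gave 7 of the DNA repair genes, 1 of the respiratory chain subunits, 0 of the proteasome subunits and 2 of the mitochondrial protein-coding genes. Among these 4 lists DESeq2 called 1 DNA repair gene and limma-voom called 0 genes. Of the lists described below with 0 members in 1 direction but calls in the other, Paneth cell genes had the most of the opposite direction at an unadjusted p under 0.05 (5 higher). DESeq2 called at most 1 such member of a list and limma-voom 0.

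**Figure D2:**
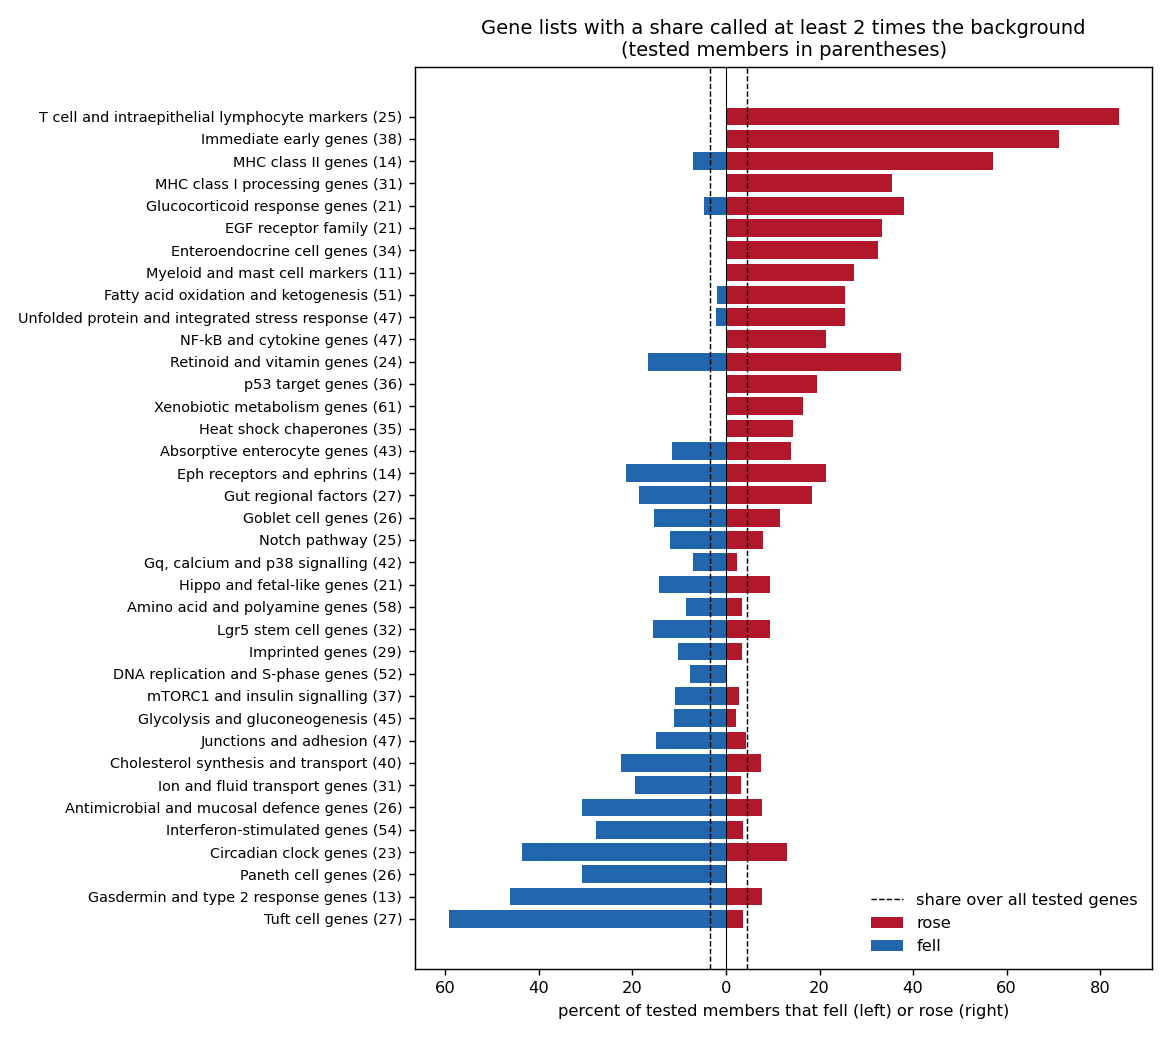
Bars give, for 37 lists with at least 10 tested members, the percentage of members that rose (right) or fell (left) in old cells, and the dashed lines give the same percentages over all tested genes, 4.42% and 3.42%. T cell and immediate early genes lie furthest to the right, and tuft cell genes and the gasdermin and type 2 list furthest to the left.

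The circadian clock gave the smallest p-value of the whole comparison. Of 23 tested clock genes 10 fell and 3 rose in old cells. The clock is a loop in which Arntl, with Clock or Npas2, activates the Per and Cry repressors and the output factors Dbp and Tef through E-box elements, while the Nr1d repressors act on Arntl. Tef, an output factor that binds D-box elements, stood at 84.1, 84.1 and 74.5 CPM in young and 18.9, 16.1 and 15.6 CPM in old libraries, a log2 fold change of -2.26 ± 0.09 with an adjusted p of 7.6e-07. Dbp, its paralogue, fell from 10.7, 12.03 and 8.37 CPM to 1.54, 1.61 and 1.53 CPM, by 2.73 on the log2 scale (SE 0.21). For both genes each old library was several times below each young one. Among the repressors, Per2 stood at 77.6, 71.7 and 67.9 CPM in young and 34.1, 31.04 and 36.4 CPM in old libraries, a log2 fold change of -1.10 ± 0.08. Per3 (-1.33 ± 0.15), Cry1 (-0.74 ± 0.11), Cry2 (-1.01 ± 0.16), Ciart (-1.62 ± 0.24) and Nr1d2 (-0.82 ± 0.06) fell as well. The opposite arm was higher in old cells. Arntl, the activator, stood at 18.9, 18.5 and 21.9 CPM in young and 47.4, 53.8 and 51.1 CPM in old libraries, a log2 fold change of 1.36 ± 0.09 with an adjusted p of 1.0e-05. Its partner Npas2 rose (1.14 ± 0.11), and so did Nfil3, a repressor that competes with Dbp and Tef, from 3.75, 4.29 and 4.198 CPM to 14.4, 16.1 and 15.98 CPM. Per1 (0.14 ± 0.07, adjusted p 0.26), Nr1d1 (-0.08 ± 0.12, 0.8) and Clock (0.12 ± 0.07, 0.36) did not pass the test. The labels do not state the hour of collection at either age, and its part in these differences was not tested.

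Promoter windows of the clock genes that fell were searched for the E-box CACGTG, on both strands, in the 250 bases before and 50 bases after each RefSeq start (GRCm38.p6). The letters were found in 4 of the 9 windows of these genes (44.4%), belonging to Tef, Ciart and Cry1, and in 9.59% of the 13834 windows of all tested genes. They were found in 0 of the 4 windows of the clock genes that rose, which belong to only 3 genes. The 150 bases before the start are printed 5′ to 3′ on the gene's strand with each match in capitals, for Tef at chr15:81802523-81802672, Ciart at chr3:95882229-95882378 and Cry1 at chr10:85185055-85185204. The Tef match begins 127 bases before the start, the Cry1 match 60, and the Ciart matches 116, 58 and 44.
Tef: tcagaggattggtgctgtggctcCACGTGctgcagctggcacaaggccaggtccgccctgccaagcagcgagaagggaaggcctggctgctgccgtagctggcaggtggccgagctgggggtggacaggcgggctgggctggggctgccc
Ciart: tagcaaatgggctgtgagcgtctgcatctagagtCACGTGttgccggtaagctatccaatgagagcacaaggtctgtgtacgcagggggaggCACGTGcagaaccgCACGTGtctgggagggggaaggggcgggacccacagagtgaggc
Cry1: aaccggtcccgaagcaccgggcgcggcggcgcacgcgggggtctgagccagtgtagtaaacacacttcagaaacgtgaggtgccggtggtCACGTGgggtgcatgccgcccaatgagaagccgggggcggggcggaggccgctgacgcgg
A match is a description of the letters, not a measured binding site. The E-box letters were also in 3 of the 5 windows of the cholesterol synthesis and transport genes that fell (60%). Another searched motif, AGTCCA, was likewise in 4 of the 9 windows of the clock genes that fell (44.4%), against 12.4% of all windows. No share was taken over the clock genes that did not pass, so these shares cannot separate the fall from membership of the list.

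A block of neighbouring genes fell at the Gsdmc locus. Gasdermin C proteins form membrane pores, and their genes are induced in intestinal epithelium by type 2 cytokines. All 6 genes of the run from Gsdmc to Gsdmcl-ps at chr15:63775968-63925666 (GRCm38) fell, though Gsdmcl-ps lost its call in 2 of the 6 analyses without 1 library. Gsdmc4 stood at 207, 252 and 158 CPM in young and 31.02, 35.4 and 30.7 CPM in old libraries, a log2 fold change of -2.67 ± 0.15. Gsdmc2 stood at 129, 152 and 99.7 CPM and 15.8, 19.02 and 18.6 CPM, a log2 fold change of -2.83 ± 0.15 with an adjusted p of 2.4e-06. Gsdmc3 (-2.99 ± 0.18) and Gsdmc (-3.35 ± 0.50) followed with the ages likewise apart. These are near-identical copies, so the split of reads between them is uncertain and the members are not independent of each other. Of the 13 tested gasdermin and type 2 response genes 6 fell, the other two being Retnlb and Fut2, and 1 rose. Retnlb, a goblet cell peptide, stood at 7.501, 10.9 and 4.702 CPM in young and 0.693, 0.452 and 0.594 CPM in old libraries, a log2 fold change of -3.73 ± 0.43. Fut2, a fucosyltransferase of the mucosal surface, fell by 1.64 on the log2 scale and lost its call in 3 of the analyses without 1 library.

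Tuft cell genes were also lower in old cells. Tuft cells are chemosensory cells that release interleukin 25 and lipid mediators towards type 2 immune cells. Of 27 tested tuft cell genes 16 fell, 1 rose and 10 did not pass, with a median log2 fold change of -0.84. Dclk1, the kinase used as their standard marker, stood at 41.98, 49.4 and 48.9 CPM in young and 17.2, 18.4 and 17.9 CPM in old libraries, a log2 fold change of -1.39 ± 0.09. Trpm5, the cation channel of their taste-like signalling, stood at 39.8, 43.7 and 45.2 CPM and 25.02, 23.9 and 24.2 CPM (-0.82 ± 0.08). Neither gene's ranges overlapped between the ages. The 5-lipoxygenase genes of leukotriene synthesis fell too, Alox5 by 1.87 and Alox5ap by 1.47 on the log2 scale, as did Avil (-0.92 ± 0.13), Sh2d6 (-1.08 ± 0.10) and Siglecf (-1.46 ± 0.23). Pou2f3, the factor that specifies tuft cells, fell by 0.79 but lost its call without young 2 or without old 1. The 1 member that rose was Ptprc, the leukocyte antigen CD45, which is also on the T cell list. Without young 2 the number of tuft cell genes that fell was 10.

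Paneth and goblet cell genes changed in part. Of 26 tested Paneth cell genes 8 fell and 0 rose. Ang4, a microbicidal ribonuclease, stood at 908, 1175 and 974 CPM in young and 280.1, 297 and 313 CPM in old libraries, a log2 fold change of -1.78 ± 0.09 with an adjusted p of 2.4e-06. Mptx1, a pentraxin, fell from 14.7, 21.5 and 15.6 CPM to 2.11, 3.56 and 2.44 CPM (-2.67 ± 0.22), and its neighbour in function Mptx2 fell by 0.63. Lyz1, the lysozyme that marks the lineage, did not pass (0.29 ± 0.09, adjusted p 0.094). The count of Paneth cell genes that fell was 4 without young 2, 4 without old 1 and 15 without old 2. Defa genes among them are near-identical copies and may share reads. Of 26 goblet cell genes 3 rose and 4 fell. Zg16, a lectin of the mucus layer, rose from 179.8, 115 and 193 CPM to 430.4, 485 and 390.5 CPM (1.42 ± 0.16), and Fcgbp, a mucin-binding protein, from 3459.6, 3373 and 4077 CPM to 5740.0, 5779 and 5454 CPM (0.64 ± 0.07). Clca1, a mucus-processing metalloprotease, fell from 1141, 1410.5 and 1367 CPM to 549, 501 and 699 CPM (-1.17 ± 0.11). Muc2, the main gel-forming mucin, did not pass (0.15 ± 0.09, adjusted p 0.38).

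Enteroendocrine genes were the secretory set that was higher in old cells: 11 of 34 tested rose and 0 fell, with a median log2 fold change of 0.62. Neurog3, the factor that starts the lineage (0.69 ± 0.13), Insm1 (0.91 ± 0.12) and Rfx6 (1.10 ± 0.16) rose, as did Chgb, a granule protein, from 130.2, 125 and 147 CPM to 226, 239.8 and 197 CPM (0.72 ± 0.08). Gip, the incretin of the K cells, stood at 20.1, 27.7 and 30.6 CPM in young and 67.5, 86.1 and 39.5 CPM in old libraries (1.30 ± 0.24). Its old values ranged widely but stayed above all young ones. Chga and Nts lost their calls in 5 of the analyses without 1 library and Gcg in 1. The count of 11 was 7 without young 1, 6 without young 2, 7 without young 3 and 7 without old 1.

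**Figure D3:**
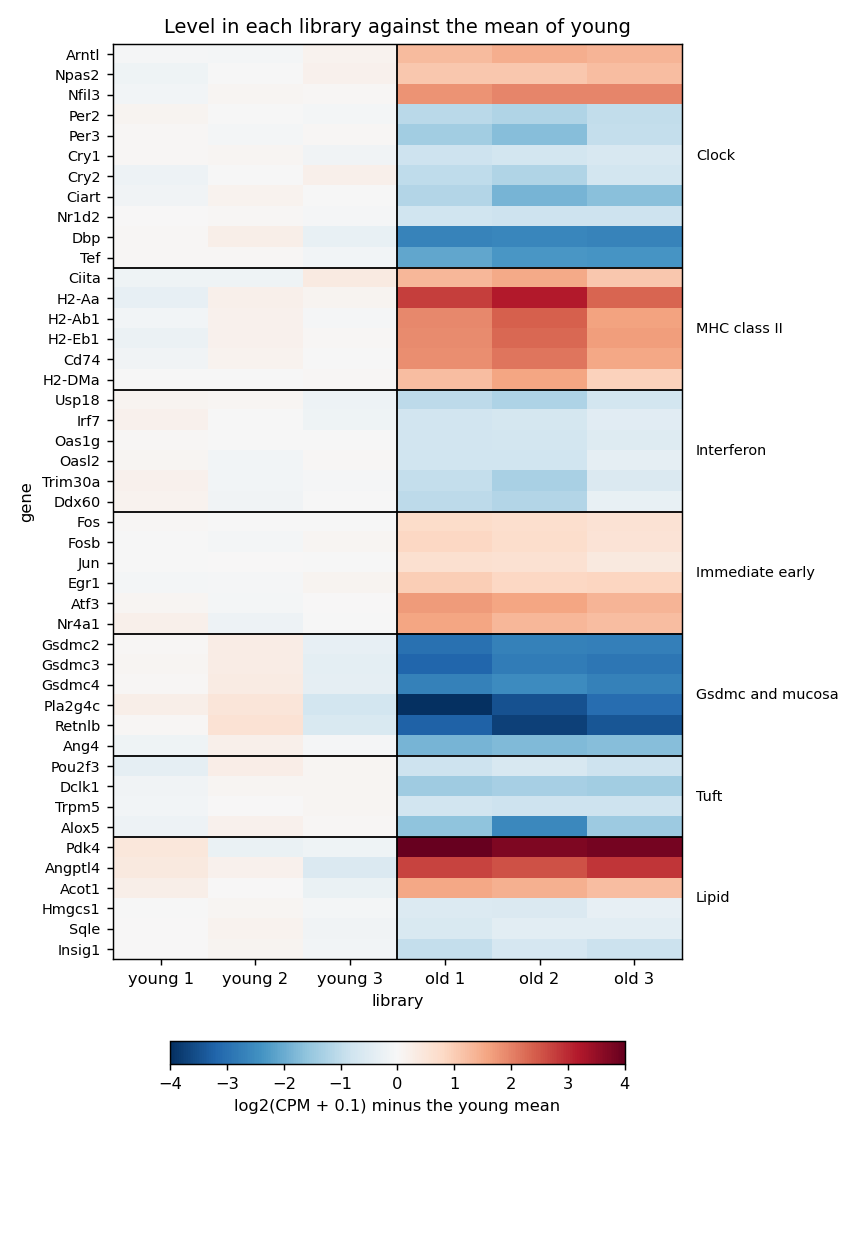
Rows are 45 genes of 7 groups and columns are the 6 libraries; colour gives each library's log2 (CPM + 0.1) minus the mean of the young libraries, red for higher and blue for lower. Most clock, gasdermin, tuft cell and interferon-stimulated genes are blue in the old libraries, immediate early and MHC class II genes and Pdk4 are red, and old 3 is palest at the interferon-stimulated genes.

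The immune genes of the epithelium divided by class. MHC class II molecules present peptides to CD4 T cells, and their genes share the master activator Ciita. Of 14 tested class II genes 8 rose and 1 fell. H2-Aa stood at 18.9, 27.6 and 25.7 CPM in young and 164, 216 and 118 CPM in old libraries, a log2 fold change of 2.79 ± 0.20. Cd74, the invariant chain, stood at 173, 208 and 188 CPM and 688, 840.5 and 548 CPM (1.87 ± 0.13). In both the lowest old library was old 3, which still lay well above every young one. H2-Ab1 (2.01 ± 0.17), H2-Eb1 (1.97 ± 0.15), H2-DMa (1.27 ± 0.14) and H2-DMb1 (1.74 ± 0.19) rose as well. Ciita itself rose from 15.03, 14.9 and 21.7 CPM to 43.1, 48.5 and 36.05 CPM (1.31 ± 0.15). H2-DMb2, which rose, and Ctss, the protease of the invariant chain, which fell by 0.25, each lost the call in 5 of the analyses without 1 library. Of the 31 tested class I processing genes 11 rose and 0 fell, H2-Q7 (0.90 ± 0.14) and Psmb8 (0.84 ± 0.17) in every such analysis. The count was between 3 and 7 when any of young 1, young 2, young 3, old 1 or old 2 was left out. Of 11 tested myeloid markers 3 rose, Itgax, Fcer1g and Itgam, and 8 did not pass. The 3 were 2 without young 1, 1 without young 2, 2 without old 1 and 2 without old 2. The summed level of the 11 was 122 to 143 CPM in young and 164 to 200.4 CPM in old libraries. Markers of B cells, 10 tested, summed to 64.7 to 75.6 CPM in young and 62.4 to 67.4 CPM in old libraries, with none called by edgeR, DESeq2 or limma-voom and 4 at an unadjusted p under 0.05. The part of these cells in the class II rises was not tested.

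Class II promoters are known for a compact upstream region that ends in a CCAAT element. The letters CCAAT, on either strand, were in 5 of the 6 windows of the class II genes that rose (83.3%) and in 37.8% of all windows. The 150 bases before the start are shown for H2-Aa at chr17:34287824-34287973, H2-Eb1 at chr17:34305717-34305866 and H2-DMb1 at chr17:34153041-34153190 (GRCm38.p6), with the letters or their reverse complement ATTGG in capitals. They begin 48 bases before the start in H2-Aa, 61 in H2-DMb1, and 59 and 35 in H2-Eb1.
H2-Aa: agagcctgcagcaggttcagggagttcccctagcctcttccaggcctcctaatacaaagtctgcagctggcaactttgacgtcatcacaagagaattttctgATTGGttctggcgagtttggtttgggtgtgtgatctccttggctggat
H2-Eb1: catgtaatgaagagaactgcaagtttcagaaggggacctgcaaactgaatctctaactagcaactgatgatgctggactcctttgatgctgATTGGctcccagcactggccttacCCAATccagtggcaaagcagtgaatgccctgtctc
H2-DMb1: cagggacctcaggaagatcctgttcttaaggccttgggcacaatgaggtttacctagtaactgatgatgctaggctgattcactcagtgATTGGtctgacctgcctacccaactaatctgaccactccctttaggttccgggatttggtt
The letters were as frequent in other sets: 9 of 10 windows of the class I genes that rose (90%), 8 of 9 of the clock genes that fell (88.9%) and 5 of 5 of the cholesterol genes that fell. The X box, another element of class II promoters, was added after the data were seen, as CCT, G, AAC and GATG each separated by 1 free base, on both strands. It was in 1 of the 6 class II windows (16.7%) and in 0.0578% of all windows.

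Interferon-stimulated genes, the antiviral programme, went the other way. Of 54 tested 15 fell and 2 rose, with a median log2 fold change of -0.30. Usp18, which removes the ubiquitin-like Isg15, stood at 9.104, 9.01 and 7.36 CPM in young and 4.01, 3.53 and 5.096 CPM in old libraries (-1.02 ± 0.18). Irf7, the factor that amplifies interferon production, fell from 55.7, 48.8 and 43.4 CPM to 28.997, 30.3 and 35.8 CPM (-0.64 ± 0.11). In both the old library nearest to the young ones was old 3. Oas1g (-0.67 ± 0.09) and Oasl2 (-0.64 ± 0.11), of the oligoadenylate synthetase family, and Trim30a (-0.93 ± 0.16) fell as well. Oas1g and Oas1a are close copies, so their reads may be split. Irf1, an interferon-induced factor, did not pass (0.22 ± 0.07, adjusted p 0.099). Of the 11 tested interferon ligands and receptors none passed edgeR's test, while 2 were higher at an unadjusted p under 0.05 and DESeq2 called 2. Of 19 tested interferon-inducible GTPases 2 rose, Gbp8 and Irgm2, and 1 fell, Gbp3. Irgm2 lost its call without young 2, and Gbp3 without young 1 or old 1. Both interferon-stimulated genes that rose, Nlrc5 and Ly6e, lost theirs without young 2, and 1 of them passed without any of young 1, young 3, old 1 or old 2. The number of interferon-stimulated genes that fell was sensitive to single libraries: 6 without young 1, 5 without young 2, 7 without old 1, 8 without old 2 and 30 without old 3.

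The interferon-stimulated response element, searched on both strands as the letters GAAA repeated after any 2 bases, was in 7 of the 12 windows of the genes of this list that fell (58.3%) and in 3.05% of all windows. Among all genes that fell it was in 3.66%, and among all that rose in 4.45%. No share was taken over the list members that did not fall, so these shares cannot separate the fall from membership of the list. Shown are Oas1g at chr5:120887614-120887763, Trim30a at chr7:104465194-104465343 and Ddx60, a helicase of viral RNA sensing, at chr8:61927937-61928086 (GRCm38.p6). The capitals begin 36 bases before the start in Trim30a, which has the reverse complement, and 53 and 19 bases before it in Ddx60. The Oas1g run of capitals holds 2 overlapping matches, beginning 18 and 12 bases before the start.
Oas1g: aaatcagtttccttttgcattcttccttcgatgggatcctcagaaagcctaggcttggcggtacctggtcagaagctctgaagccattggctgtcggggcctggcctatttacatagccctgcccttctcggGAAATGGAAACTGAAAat
Trim30a: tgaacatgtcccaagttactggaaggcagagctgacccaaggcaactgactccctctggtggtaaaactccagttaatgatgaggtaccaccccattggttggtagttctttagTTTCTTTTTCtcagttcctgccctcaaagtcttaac
Ddx60: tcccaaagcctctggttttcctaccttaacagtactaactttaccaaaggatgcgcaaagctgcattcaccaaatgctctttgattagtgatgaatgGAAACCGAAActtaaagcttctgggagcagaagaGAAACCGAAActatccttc
Ddx60 fell by 0.80 on the log2 scale with all 6 libraries and lost its call in 4 of the analyses without 1 library.

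Genes of lymphocytes were among the largest rises. Of 25 tested T cell and intraepithelial lymphocyte markers 21 rose and 0 fell, with a median log2 fold change of 2.05. Their summed level was 69.8, 46.9 and 56.6 CPM in young and 234, 231 and 273 CPM in old libraries. Gzma, a granzyme of cytotoxic lymphocytes, stood at 15.002, 9.496 and 13.3 CPM in young and 70.2, 66.9 and 77.3 CPM in old libraries, a log2 fold change of 2.51 ± 0.13 with an adjusted p of 2.4e-06. Cd8a, the co-receptor of cytotoxic T cells, rose from 4.23, 2.93 and 3.13 CPM to 18.4, 19.2 and 26.01 CPM (2.63 ± 0.19). Itgae, the integrin that holds lymphocytes at E-cadherin, rose by 1.87, and Trdc, the constant segment of the delta receptor chain, by 2.31 on the log2 scale. Klrd1, a natural killer receptor chain, had the largest rise of the genes averaging at least 1 CPM, from 0.333, 0.142 and 0.196 CPM to 5.396, 3.73 and 5.57 CPM (4.44 ± 0.38). Its neighbour Klre1 had 0 counts in the young libraries and 129 in the old ones, at least 44.4-fold higher against a floor of 3 counts over the group. Antigen receptor segments rose at 10 of 15 tested. Genes on none of the lists but known from lymphocytes included Lag3 (3.03 ± 0.33) and Cd96 (3.03 ± 0.32), among the 12 largest rises named. Others, picked after their values were seen, were Il2rb (1.99 ± 0.28), Zap70 (2.33 ± 0.37) and Runx3 (2.31 ± 0.38). Red cell markers also rose, with 4 of 4 globin genes higher, but none passed without young 2 or without old 1. Leaving the genes on the lists of other cells out of the count gives 1290 changed genes, 715 higher and 575 lower. This removes only the listed markers, and lymphocyte genes on no list stay in it. The part of these cells in the other rises was not tested.

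**Figure D4:**
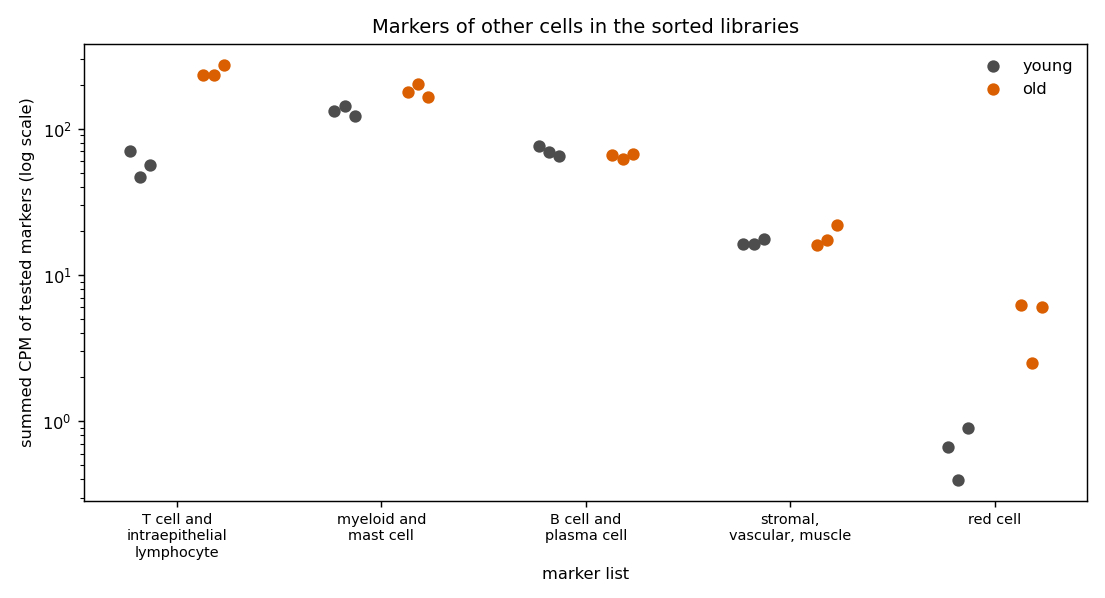
Points are the 6 libraries and the vertical log axis gives the summed CPM of the tested markers of 5 other cell types (25 T cell, 11 myeloid, 10 B cell, 9 stromal and 4 red cell genes). T cell and red cell sums lie wholly higher in old libraries, as do myeloid sums by less, while B cell and stromal sums overlap.

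Immediate early genes, which respond to signals within minutes, moved in 1 direction: 27 of 38 tested rose and 0 fell, with a median log2 fold change of 0.70. Between 23 and 28 rose without any single library. The part of cell isolation and sorting in these rises was not tested. Atf3, a stress-induced factor, stood at 79.8, 72.3 and 77.02 CPM in young and 250.4, 228 and 194 CPM in old libraries (1.55 ± 0.09). Egr1 stood at 417, 419 and 476 CPM and 855, 773 and 789.7 CPM (0.88 ± 0.06). Fos, a subunit of the AP-1 factor, stood at 697, 657 and 661 CPM and 1116, 1081 and 995 CPM (0.66 ± 0.06). In each the ages did not overlap, and the spread within an age was small. Jun (0.54 ± 0.06), Junb (0.71 ± 0.08), Fosb (0.70 ± 0.07), Maff (1.44 ± 0.13) and the orphan receptors Nr4a1 (1.38 ± 0.11) and Nr4a2 (1.13 ± 0.09) rose too. The feedback inhibitors moved with them, Dusp1, a phosphatase of MAP kinases, from 64.001, 66.4 and 61.96 CPM to 144, 128 and 125 CPM (1.05 ± 0.07) and Zfp36, which destabilises such transcripts, from 260.4, 244 and 253 CPM to 467, 448 and 412 CPM (0.81 ± 0.06). On no list, and picked after its value was seen, Thbs1, a matrix glycoprotein, rose from 41.95, 33.4 and 47.4 CPM to 125, 133 and 129 CPM (1.66 ± 0.10).

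Of 21 tested genes of the epidermal growth factor receptor family and its pathway 7 rose and 0 fell, 4 of them without old 1. The ligands Areg, from 2.51, 1.905 and 2.66 CPM to 7.11, 5.64 and 5.19 CPM (1.34 ± 0.21), and Hbegf (0.98 ± 0.10) rose, and so did the receptor Erbb3 (0.52 ± 0.06). Among the pathway's responders, Spred1 rose by 0.38, Etv5 by 0.74, Dusp6 by 0.73 and Spry1 by 0.61 on the log2 scale. Spry1 lost its call without old 1, Etv5 without young 2 or old 1, and Dusp6 without any of young 1, young 3, old 1 or old 2. Irs2, an adaptor of the insulin receptor, rose from 20.4, 24.02 and 23.4 CPM to 52.3, 53.8 and 45.3 CPM (1.16 ± 0.09), whereas Igf2bp3, an RNA-binding protein of fetal tissues, fell from 10.8, 5.03 and 8.26 CPM to 0.904, 0.847 and 1.000 CPM (-3.12 ± 0.36).

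Where they changed, genes of fat oxidation mostly rose in old cells and genes of sterol synthesis mostly fell. Of 51 tested genes of fatty acid oxidation and ketogenesis 13 rose and 1 fell. Pdk4, the kinase that shuts pyruvate out of oxidation, stood at 1.996, 1.19 and 1.26 CPM in young and 24.9, 20.4 and 21.9 CPM in old libraries, a log2 fold change of 3.92 ± 0.18 with an adjusted p of 2.0e-06. Angptl4, an inhibitor of lipoprotein lipase, rose from 3.12, 2.701 and 1.57 CPM to 15.9, 14.2 and 17.7 CPM (2.70 ± 0.20). Both are targets of the fatty acid receptor Ppara, which itself rose by 0.54 on the log2 scale. The neighbouring thioesterase genes Acot2 (1.49 ± 0.15), Acot1 (1.40 ± 0.13) and Acot4 (0.87 ± 0.14) at chr12:83987861-84048601 (GRCm38) rose together, though as related copies they may share reads. Cpt2, of carnitine-dependent import, rose by 0.43.

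Of 40 tested genes of cholesterol synthesis and transport 9 fell and 3 rose, with 1 rise left without any of young 1, young 2, old 1 or old 2. Insig1, the sterol sensor that retains the SREBP activators, stood at 116, 124 and 107 CPM in young and 59.05, 72.4 and 63.5 CPM in old libraries (-0.83 ± 0.08). The ages did not overlap. The synthesis enzymes Hmgcs1 and Sqle each fell by 0.49 on the log2 scale. Those that rose included Abca1, the exporter (0.99 ± 0.18). Of 21 tested glucocorticoid response genes 8 rose and 1 fell. The fall, of the metallothionein Mt2, was not called by DESeq2 or limma-voom, nor without any of young 1, young 2, old 1 or old 3. Zbtb16, a zinc finger factor of that response and also of innate-like lymphocytes, rose from 1.301, 0.483 and 0.812 CPM to 11.5, 14.3 and 13.6 CPM (3.93 ± 0.24), and Fkbp5, a receptor co-chaperone, by 0.48 on the log2 scale. The receptor gene Nr3c1 (-0.00035 ± 0.06, adjusted p 1) and Sgk1 (0.72 ± 0.20, 0.056) did not pass. Several of the 8, among them Pdk4, Angptl4 and Dusp1, are also on other lists.

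A minority of stress and damage genes rose. Of 47 tested genes of the unfolded protein and integrated stress responses 12 rose and 1 fell, with Herpud1 (0.82 ± 0.08), Ppp1r15a (0.84 ± 0.11) and Chac1 (1.83 ± 0.32) among them. The count of rises was 6 without young 1 and 4 without young 2. The fall, of the amino acid transporter Slc7a5, lost its call without any of young 1, young 2 or old 1. Of 35 heat shock chaperones 5 rose, led by Hsph1 (0.64 ± 0.06), and 3 without any of young 1, young 2, young 3 or old 1. Of 36 p53 targets 7 rose and 0 fell. Trp53inp1 (1.17 ± 0.10), Plk3 (1.00 ± 0.14) and Ccng2 (0.95 ± 0.14) rose, and Eda2r, a receptor of the tumour necrosis factor family, rose from 3.36, 2.45 and 1.68 CPM to 6.57, 6.07 and 7.44 CPM (1.43 ± 0.23). Of 47 NF-kB and cytokine genes 10 rose and 0 fell, among them Tnfaip3 (0.52 ± 0.09), a feedback inhibitor, Il18 (0.76 ± 0.12) and Ccl5 (1.97 ± 0.19), a chemokine that is also on the T cell list. That count was 4 without young 1, 5 without young 2, 6 without young 3 and 5 without old 1. Of 61 xenobiotic metabolism genes 10 rose and 0 fell, and the count was 5 without any of young 1, young 2 or old 1. Cyp2e1 (1.53 ± 0.21) and the carboxylesterase Ces1d (0.74 ± 0.07) were among them.

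Genes that vary along the intestine or handle vitamins shifted in both directions. Of 27 tested regional factors 5 rose and 5 fell, and 3 rose without any 1 of young 1, young 2, young 3, old 1 or old 2, while 2 fell without young 1, young 2, old 1 or old 2. Nr1h4, the bile acid receptor FXR, rose from 15.4, 15.1 and 15.3 CPM to 29.1, 31.97 and 31.4 CPM (1.02 ± 0.08), and Fabp6, the ileal bile acid carrier and its target, rose too (2.41 ± 0.41). Pdx1, a factor of the duodenum (-0.70 ± 0.12), and Slc40a1, the duodenal iron exporter (-0.71 ± 0.12), fell. Of the other regional factors, Hnf4g (0.39) and Hoxb9 (2.80) rose, and Gata5 (-0.27) and Hnf4a (-0.17) fell. Hnf4g lost its call in 3 of the analyses without 1 library, and Hoxb9, Gata5 and Hnf4a in 5. The labels do not state the segment of intestine at either age, and its part in these differences was not tested. Of 24 retinoid and vitamin genes 9 rose and 4 fell. Vdr, the vitamin D receptor, was tightly grouped at 627, 623 and 643 CPM in young and 770.0, 773 and 768 CPM in old libraries (0.29 ± 0.05). Its calcium transport targets fell: S100g by 1.23 on the log2 scale, and Trpv6 from 45, 17 and 34 counts in young to 0 in all 3 old libraries, at least 31-fold lower against a floor of 3 counts over the group. The count of vitamin genes that rose was 5 without young 1, 3 without young 2, 3 without old 1 and 5 without old 2. Of 47 junction and adhesion genes 7 fell (14.9%, against 3.42% of all tested genes). The 2 that rose (4.26%) were no larger a share than the 4.42% of all tested genes. The falls were 4 without any of young 1, young 2 or old 1. The rises were 1 without any of young 1, young 2, young 3 or old 1. Fn1, fibronectin, fell from 3.902, 5.91 and 1.71 CPM to 0.241, 0 and 0.219 CPM (-4.65 ± 0.72), and Itga5, a subunit of its receptor, fell by 1.28 on the log2 scale. The laminin chain Lamc1 fell by 0.61 and Lama5 by 0.43.

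Most stem cell genes did not pass the test. Of 32 tested members 5 fell, 3 rose and 24 did not pass. Ascl2, the Wnt-driven factor that maintains the Lgr5 state, stood at 36.8, 31.5 and 28.9 CPM in young and 22.5, 21.9 and 18.4 CPM in old libraries (-0.62 ± 0.11, adjusted p 0.0058). Kcne3, a potassium channel subunit, fell by 0.43. The number of stem cell genes that fell was 3 without young 1, 3 without young 2, 2 without old 1 and 8 without old 3. Among proliferation genes, 0 of 52 S phase genes rose and 4 fell, the clearest being Uhrf1, a factor of maintenance methylation, from 221, 228 and 225 CPM to 165, 166 and 181 CPM (-0.39 ± 0.05). The count of 4 was 2 without young 1, 1 without young 2 and 1 without old 1. Of 52 genes of G2 and mitosis 1, Kif2c, passed with all 6 libraries (0.31 ± 0.08, adjusted p 0.046). It passed in none of the 6 analyses without 1 library, and limma-voom called 0 of the 52. Mki67 had a log2 fold change of 0.02 ± 0.08 and an adjusted p of 0.94. Cdkn1a, the inhibitor p21, stood at 27.9, 25.4 and 28.2 CPM and 36.6, 41.4 and 30.4 CPM (0.41 ± 0.11, adjusted p 0.041) and lost its call in 5 of the analyses without 1 library. Cdkn2a, the senescence marker p16, did not pass the count filter, with 0 counts in 4 libraries and 2 and 5 in the others, both old. Chrm3, the muscarinic receptor deleted in the series' other experiment, had a log2 fold change of 0.02 ± 0.12 with an adjusted p of 0.96.

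The other 942 changed genes were on no list, 524 higher and 418 lower. Examples outside the naming rule were picked after their values were seen. Ceacam10, an adhesion molecule of the carcinoembryonic antigen family, rose from 18.6, 25.6 and 24.2 CPM to 90.1, 70.1 and 99.1 CPM (1.92 ± 0.14). Pnliprp2, a pancreatic-type lipase, fell from 170.0, 219 and 166 CPM to 67.9, 71.8 and 65.3 CPM (-1.44 ± 0.10). Among the largest falls was, from the lipid synthesis list, the phospholipase Pla2g4c, from 62.7, 75.4 and 32.04 CPM to 1.63, 4.71 and 6.41 CPM (-3.74 ± 0.38). The scaffold gene Amotl1 fell from 7.98, 6.11 and 7.304 CPM to 0.663, 0.593 and 1.13 CPM (-3.17 ± 0.26). Of the 84 tested cytosolic ribosomal protein genes 1 changed: Rps4l, an autosomal copy of Rps4x, fell from 39.05, 42.6 and 32.9 CPM to 5.97, 6.58 and 6.82 CPM (-2.56 ± 0.12, adjusted p 2.4e-06). It may share reads with its relatives. Zbed6 rose by 3.89 on the log2 scale but lies wholly within genes on the same strand, so its counts are uncertain.

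By gene class, 5.13% of 13289 protein-coding genes rose and 4.1% fell, against 1.88% and 0.89% of 1910 long non-coding genes and 0.754% and 0.685% of 1459 pseudogenes. In bins of gene length the share that rose was between 4.85% and 5.57% and the share that fell between 3.39% and 4.89%, with no steady order from short to long. By chromosome, 17 had the highest share of rises among the autosomes (6.32% of 870), and it carries the class II genes. Of the 36 tested genes of mitochondrial DNA, 3 rose and 3 fell (8.33% each), all ribosomal or transfer RNA genes. The ribosomal mt-Rnr1 (0.44 ± 0.06) and the transfer RNA gene mt-Te (0.53 ± 0.10) passed without each library in turn, and the other 4 did not. Changed genes lay next to each other in 14 runs of at least 3 neighbours of 1 direction among the tested genes, 11 that rose and 3 that fell. Besides the Gsdmc and Acot runs they held the class II genes at chr17:34257689-34369495 and chr17:34119541-34160230, Cd3g, Cd3d and Cd3e at chr9:44969572-45009627 (Cd3d lost its call in 4 of the analyses without 1 library), and Fut2, Dbp and Sphk2 at chr7:45648591-45718002 (GRCm38). Among families named by a shared stem, 5 of 9 Gimap genes, GTPases of lymphocytes, rose (55.6%). So did 6 of 14 Klf factors (42.9%), against 4.42% of all tested genes. Of 15 Sema genes 5 fell (33.3%, against 3.42%). These family counts are from all 6 libraries and were not followed through the analyses without 1 library.

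The changes were set beside those of a separate experiment of the series, in which WT cells, from mice with Lgr5CreERT2-IRES-GFP and floxed Chrm3 given vehicle, were compared between the treatments ES and NT (n = 2 each). ES is not spelled out in the labels. That experiment shares no libraries with the ageing comparison, and its table was scaled and tested on its own. In it 2.11% of 17364 tested genes rose with ES and 1.39% fell. Of the 723 genes that rose in old cells and were tested in both, 68 rose with ES (9.41%, and 18.6% of the rises with ES) and 6 fell (0.83%). Of the 562 that fell in old cells, 33 fell with ES (5.87%, and 13.9% of the falls) and 20 rose (3.56%). In all, 101 genes changed in the same direction and 26 in opposite directions. Among the 26 were the mucosal genes described above: Retnlb rose by 3.50 with ES on the log2 scale, Gsdmc2 by 1.37, Gsdmc3 by 1.15, Gsdmc4 by 1.12, Clca1 by 1.60, Mptx1 by 1.00 and Ang4 by 0.55, where each fell with age. The WT NT level was 0.322 CPM for Retnlb, 8.53 for Gsdmc2, 3.98 for Gsdmc3 and 19.2 for Gsdmc4. It was 300 CPM for Clca1, 2.72 for Mptx1 and 246 for Ang4. Each lay below every young library of the ageing experiment. All but Mptx1, which lay within the old range, were also below every old library. Why the untreated levels differed between the experiments was not tested. Among those that rose in both were Zbtb16 (2.48 with ES), Zg16 (1.32), Gip (1.18), Nr1h4 (0.98), Fcgbp (0.96) and Cd74 (0.52). Ascl2 (-0.74) and Kcne3 (-0.52) fell in both. With 2 libraries per group these counts depended strongly on single ones: the same-direction count was 13 and the opposite count 4 without the first WT NT library, 9 and 2 without the second, 26 and 8 without the first WT ES library, and 29 and 17 without the second. Of the ageing libraries, the same-direction count was 58 without young 1, 43 without young 2, 49 without old 1 and 66 without old 2.

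**Figure D5:**
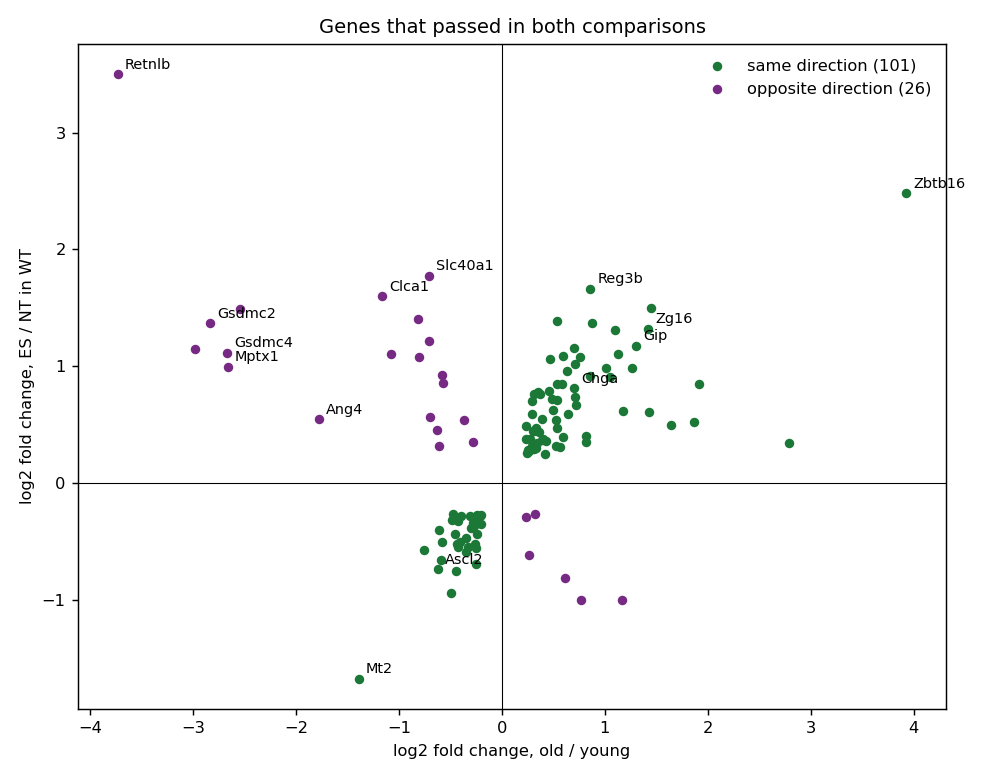
Each point is a gene that passed the test in both comparisons, with the log2 fold change of old over young on the horizontal axis and of ES over NT in WT cells (n = 2 each) on the vertical axis. Colour separates the 101 genes that changed in the same direction from the 26 that changed in opposite directions; Retnlb and the Gsdmc genes lie at the upper left, lower with age and higher with ES.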

How the data were processed

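Polyadenylated RNA of sorted cells was sequenced, per the labels, as strand-specific TruSeq libraries from Trizol-extracted RNA. The deposited table holds raw counts per Ensembl gene as the authors made them, with no normalization, and the submitters' processing notes name FastQC 0.11.2 and mm10. Which aligner and counter were used, and with which strand setting, is not given in the sources read. Genes were kept with the default filterByExpr settings of edgeR 4.0.16 (R 4.3.3), which removed 38528 of 55335. Counts were scaled by trimmed mean of M-values factors (0.989 to 1.01) and tested with edgeR's quasi-likelihood test on the 3 young and 3 old libraries, with Benjamini-Hochberg adjustment over all 16807 genes. The SE of a log2 fold change was derived from the F statistic and is approximate. Between replicates the chi-square per degree of freedom was 6.22 or more, so no library was a repeat of another. Intervals are not given for single counts, and floors of 3 counts cover counting error only.

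Gene positions came from GENCODE release M21 (GRCm38), which held 55154 of the identifiers, and promoter windows from RefSeq (GRCm38.p6), found for 10863 of 16484 tested symbols. The members and lists were chosen with earlier results of these data known, and the lists' counts are descriptions. Among genes that passed, averaged at least 1 CPM and did not overlap between the ages, the 12 largest fold changes each way were named, and the 6 smallest p-values each way at 50 CPM or more. Up to 4 changed genes were added by p, whatever their level, from lists with at least 3 changed genes in 1 direction. The share of members changed in that direction also had to reach 2 times that of all genes. Lgr5, Olfm4, Ascl2, Mki67, Cdkn1a, Cdkn2a and Chrm3 were always named. Other genes named in the text serve as examples of their list, picked after their values were seen. The ES and NT libraries were fitted separately in the same way. The script was tested on simulated data, where false calls exceeded the nominal share. DESeq2 1.42.0, limma-voom (limma 3.58.1), other scalings and filters, a replicate block and leaving out each library were tried as alternatives. Results for some genes are not reported here.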

Additional observations from a re-analysis of the deposited data

How the results depend on the processing

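The count of 1318 changed genes was 666 with no filter on low counts (397 higher, 269 lower, 292 changed at least 2-fold, 225 list members), where more genes enter the adjustment. At an adjusted p under 0.01 it was 569 (358 higher, 211 lower, 270 at least 2-fold), and under 0.1 it was 1991 (915 lower). Leaving out each library in turn gave 636 to 1485 changed genes, 375 to 782 higher, 231 to 703 lower, 303 to 475 changed at least 2-fold and 222 to 435 list members. The overlap with ES ranged from 9 to 121 genes in the same direction and from 2 to 25 in opposite directions. Relative log expression scaling (1310), library size only (1359), a filter of 1 CPM in 3 libraries (1243), DESeq2 (1477), limma-voom (1186) and edgeR's older quasi-likelihood form (1235) stayed within 1.5 times the count; DESeq2 called 94.2% of the 1318 genes and limma-voom 89.5%.

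The correlations of same-numbered deviations from the group means were 0.018, 0.138 and 0.157 for replicates 1, 2 and 3. Young 2 and young 3 correlated best with the old library of the same number, and young 1 with old 2 (0.059). Whether same-numbered libraries shared a batch was not tested. With the replicate block 2020 genes changed, 948 of them lower. Mki67, Olfm4 and Chrm3, none of which passed the test, changed sign without 1 library. Over the 6 analyses without 1 library the log2 fold change ranged from -0.0562 (without old 3) to 0.0968 for Mki67, also below 0 without young 1 and young 2, from -0.0491 (without old 3) to 0.131 for Olfm4, and from -0.0589 (without young 1) to 0.118 for Chrm3, also below 0 without young 2. Of the 174 genes that the naming rule gave and that passed, 130 passed without each library in turn and 122 under every alternative. The cause of these shifts was not tested. Genes under the count filter, Cdkn2a among them, could not be compared at this depth.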
